A study of Rattus norvegicus with 6 samples.

Results

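The bile acid synthesis, conjugation and uptake genes Cyp7a1, Cyp8b1, Cyp27a1, Cyp7b1, Cyp39a1, Hsd3b7, Akr1d1, Baat, Slc27a5 and Slc10a1, 10 in all, were followed in rat liver, on arrays that each carried 31042 probe sets other than controls. A probe set, a group of short probes against 1 transcript, was taken as a member where the probe-to-gene table gave it a single symbol from this list. That left 11 member probe sets for the 10 genes, 2 of them for Akr1d1, against 14217 genes named by a single symbol on the array. The 6 arrays fell into 3 groups of 2. BBDR.lyp/lyp pre-hyperglycemia livers came from 50-day-old congenic rats homozygous for the lyp mutation, which truncates Gimap5, leaves few T cells and leads to spontaneous autoimmune diabetes, and were taken before the onset of hyperglycemia. BBDR.lyp/lyp post-hyperglycemia livers came from 55-day-old rats of the same genotype shortly after onset. BBDR.+/+ livers came from 55-day-old rats of the same diabetes-resistant BB background with the normal lyp allele, which do not become diabetic unless induced. Per the labels all rats were kept pathogen-free on a regular diet and fasted for 12 hours before the liver was taken, whereas the methods describe free access to food. The methods state that samples were collected under isoflurane anesthesia, and no source names a drug as the treatment of any group. Nothing in the labels says whether the replicates of a group are separate animals, and the methods describe liver taken at several ages in some rats, so that arrays before and after onset may come from the same rats, which the labels do not settle. The p-values measure only the spread between these arrays, which may be technical. Age and hyperglycemia cannot be told apart between the BBDR.lyp/lyp groups, and age and genotype cannot be told apart between BBDR.lyp/lyp pre-hyperglycemia and BBDR.+/+. Between BBDR.lyp/lyp post-hyperglycemia and BBDR.+/+, which share an age, genotype and hyperglycemia cannot be told apart.

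Bile acids are made from cholesterol in the hepatocyte and are the main route by which the body disposes of it. Cyp7a1 opens the classic pathway and sets its rate, Cyp27a1 opens the alternative pathway by oxidizing the side chain, and Cyp7b1 and Cyp39a1 add the 7-alpha hydroxyl group to oxysterols. Hsd3b7 and Akr1d1 then modify the steroid ring, Cyp8b1 adds the hydroxyl group that separates cholic acid from chenodeoxycholic acid, Slc27a5 and Baat join the product to coenzyme A and then to taurine or glycine, and Slc10a1 takes conjugated bile acids back up from portal blood. Bile acids returning to the liver repress Cyp7a1 and Cyp8b1 through the receptor Nr1h4 and its target Nr0b2, and Cyp7a1 follows a daily rhythm in rodents.

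The sequences just upstream of Cyp39a1, Hsd3b7 and Cyp8b1 are shown because the first and second genes changed between groups and the third is the branch enzyme that did not pass the test in any comparison. Each is the 250 bases before the gene start in RefSeq on the rat build GRCr8, 5′ to 3′ on the gene's strand. Capitals mark matches, on either strand, to the motifs searched.
Cyp39a1, chr9:24804061-24804310, minus strand: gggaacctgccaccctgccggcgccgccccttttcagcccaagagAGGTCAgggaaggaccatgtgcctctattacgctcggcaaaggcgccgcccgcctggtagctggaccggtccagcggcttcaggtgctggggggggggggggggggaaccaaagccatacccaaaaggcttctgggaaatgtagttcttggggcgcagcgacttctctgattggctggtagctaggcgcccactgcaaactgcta
Hsd3b7, chr1:191842438-191842687, plus strand: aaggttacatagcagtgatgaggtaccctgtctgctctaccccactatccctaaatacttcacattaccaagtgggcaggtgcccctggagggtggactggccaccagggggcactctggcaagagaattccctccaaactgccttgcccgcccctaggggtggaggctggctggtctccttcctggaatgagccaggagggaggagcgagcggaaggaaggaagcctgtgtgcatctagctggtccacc
Cyp8b1, chr8:130457593-130457842, minus strand: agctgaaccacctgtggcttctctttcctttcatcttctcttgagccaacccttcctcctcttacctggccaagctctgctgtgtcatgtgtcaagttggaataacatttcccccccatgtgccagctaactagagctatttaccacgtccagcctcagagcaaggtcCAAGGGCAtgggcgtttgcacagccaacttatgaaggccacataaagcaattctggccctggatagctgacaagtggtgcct
The motifs were the NR5A2 site CAAGGNCA, the nuclear receptor core site AGGTCA, its direct repeat with a single base between (DR1), the D-box TTATGNAA, the E-box CACGTG, the HNF1 core GTTAAT and the FOX site TGTTTAC. The reverse of CAAGGNCA can hold that of AGGTCA, and the direct repeat holds the core site, so these matches overlap. Cyp39a1 held AGGTCA at -205 to -200 from the gene start, Cyp8b1 held CAAGGNCA at -82 to -75, and Hsd3b7 held none of the 7. Among the 7 member genes with an entry in the promoter table, CAAGGNCA was found in 2 (Cyp8b1 and Cyp27a1), AGGTCA in 3 (Cyp27a1, Cyp39a1 and Slc10a1) and GTTAAT in 1 (Slc10a1), and the other motifs in 0. Among 33469 promoters of the same length the shares were 5.58% for CAAGGNCA, 14.1% for AGGTCA, 0.0508% for DR1, 3.28% for TTATGNAA, 5.59% for CACGTG, 6.45% for GTTAAT and 3.21% for TGTTTAC. The genes not in that table were Cyp7a1, Cyp7b1 and Akr1d1. On the same build the gene Cyp7a1 spans chr5:24174505-24184202, Cyp39a1 chr9:24727817-24804060 and Hsd3b7 chr1:191842688-191845919.

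The arrays hold no counts, so the number of arrays limits the precision, and the values below are deposited log2 signals, in which a difference of 1 is a doubling. Array medians lay between 5.90 and 5.94, and the 7 hepatocyte markers measured of 8 listed all stood at or above the 99.8th percentile of probe sets, with none called in any comparison. Gimap5, the gene mutated at lyp, was lower than in BBDR.+/+ by both limma comparisons, at -0.76 pre-hyperglycemia (adjusted p = 0.0284) and -0.63 post-hyperglycemia (adjusted p = 0.0191). Each of these calls was lost in 3 of 6 fits with an array left out (-0.77 to -0.59 pre-hyperglycemia and -0.64 to -0.53 post-hyperglycemia). The post-hyperglycemia arrays stood apart in the control probe sets along the beta-actin transcript, where the 3′ minus 5′ difference, which grows as less signal comes from the 5′ end, was 2.11 and 2.04 against 1.51 and 1.32 pre-hyperglycemia and 1.36 and 1.12 in BBDR.+/+. The GAPDH difference was 1.37 and 1.33 post-hyperglycemia against 0.44 to 0.72 on the other 4 arrays. With the mean of both differences as a covariate, limma called 0 probe sets in either comparison with post-hyperglycemia arrays (2171 and 2186 at an unadjusted p under 0.05). That mean was 1.74 and 1.68 post-hyperglycemia against 0.78 to 1.09 on the other 4 arrays. It follows the post-hyperglycemia group so closely that this fit cannot separate the group from the 3′ minus 5′ difference. Calls lost and signs turned with the covariate, here and below, therefore settle nothing about either. Kupffer cell markers also differed, 3 of the 6 measured being higher post-hyperglycemia than in BBDR.+/+, where 2.29% of the brightest probe sets of all genes were called higher. Of these Clec4f (0.42, limma adjusted p = 0.0453) and C1qa (0.40, limma adjusted p = 0.0442) were lost whichever array was left out (0.34 to 0.49 and 0.38 to 0.43), and Cd163 (0.73, limma adjusted p = 0.00598) without BBDR.+/+ replicate 2 (0.61). The summed level of the list was 12.62 to 12.64 in BBDR.+/+, 12.90 to 12.93 pre-hyperglycemia and 12.97 to 13.07 post-hyperglycemia. Between the BBDR.lyp/lyp groups 0 of the 6 were called, at a list median of 0.03. In whole liver, fewer cells of a type and less RNA per cell cannot be told apart. Of the 8 pancreatic acinar markers, only Cpa1 was called between the BBDR.lyp/lyp groups, at 1.09 (limma adjusted p = 0.00626) and whichever array was left out, and its group means ran in the order of Cyp7a1 and Cyp39a1. The other 7 were not called there, the list median was -0.02, and Cela1 was lowest at -0.26. Prss1, Amy2a3 and Ctrb1 lay at the 17.5th, 2.75th and 21.3rd percentiles of probe sets. The summed acinar level, which includes Cpa1, was 9.20 to 9.40 in BBDR.+/+, 9.21 to 9.25 pre-hyperglycemia and 9.51 to 9.52 post-hyperglycemia. Of the 7 stellate cell markers, Col1a1 was called at -0.51 between the BBDR.lyp/lyp groups (limma adjusted p = 0.0310), lost whichever array was left out (-0.58 to -0.45), and at 0.60 pre-hyperglycemia against BBDR.+/+ (limma adjusted p = 0.0284), lost without any array of either group (0.59 to 0.62), and the summed level was 11.99 on both BBDR.+/+ arrays, 12.19 to 12.30 pre-hyperglycemia and 11.82 to 12.04 post-hyperglycemia. The part of the Kupffer, acinar and stellate cell markers in the member results was not tested.

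Within BBDR.lyp/lyp livers, 3 member genes passed the test between pre- and post-hyperglycemia: Cyp7a1 and Cyp39a1 rose and Hsd3b7 fell, each by about 1.5-fold. Cyp7a1, the rate-limiting enzyme of the classic pathway, read 11.53 and 11.43 pre-hyperglycemia, 12.05 and 12.07 post-hyperglycemia, and 11.96 and 11.80 in BBDR.+/+. Both pre-hyperglycemia arrays lay below all 4 others, and the post-hyperglycemia arrays lay just above BBDR.+/+. The post- minus pre-hyperglycemia difference was 0.58 (SE 0.11, 95% interval 0.35 to 0.82, limma adjusted p = 0.0204), a rise of 49.9% on the linear scale. Against BBDR.+/+, the post-hyperglycemia mean of 12.06 ± 0.02 (SD, n = 2) differed by 0.18 from 11.88 ± 0.11, with an interval of -0.06 to 0.41 (limma adjusted p = 0.403). The pre-hyperglycemia mean of 11.48 ± 0.07 was 0.41 below BBDR.+/+ and did not pass (limma difference -0.41, interval -0.64 to -0.17, adjusted p = 0.144). The call between the BBDR.lyp/lyp groups did not hold without pre-hyperglycemia replicate 2 (0.54) or without post-hyperglycemia replicate 1 (0.60) or 2 (0.57), and with the 3′ minus 5′ covariate the difference was 0.19 (limma adjusted p = 0.937). Cyp7a1 and Cyp39a1 also stand in gene lists that the study drew from liver arrays of this experiment. So do Nr1d1, Bhlhe40, Acot12 and Hnf4a among the genes given further on, and all of these are therefore not independent evidence. The study prints no direction for these genes except Acot12, whose fold changes it gives as positive, opposite in sign to those found here. It describes the listed genes as altered in both of its comparisons, whereas Cyp7a1 and Cyp39a1 passed here only between the BBDR.lyp/lyp groups. The study's rule was a rank product false discovery rate with a looser threshold than the one used here. Its methods average earlier liver samples for the value before onset, and it names BBDR.lyp/+ rats beside BBDR.+/+ as controls. Test, threshold and samples thus differ, and the contrast is no failed repeat of the study's result.

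Cyp39a1, the 7-alpha hydroxylase of 24-hydroxycholesterol, had the same order of groups. It read 7.93 and 7.58 pre-hyperglycemia, 8.38 and 8.37 post-hyperglycemia, and 8.22 and 8.16 in BBDR.+/+. Again both pre-hyperglycemia arrays were the lowest and both post-hyperglycemia arrays the highest, with a spread between the pre-hyperglycemia arrays (SD 0.25) wider than in the other groups. The post- minus pre-hyperglycemia difference was 0.62 (SE 0.13, interval 0.34 to 0.89, limma adjusted p = 0.0323). Post-hyperglycemia against BBDR.+/+ gave 0.18 (interval -0.10 to 0.46, limma adjusted p = 0.483), and pre-hyperglycemia against BBDR.+/+ gave -0.43 (interval -0.71 to -0.16, limma adjusted p = 0.183). The call was lost when any 1 array other than pre-hyperglycemia replicate 1 was left out, at 0.44 without pre-hyperglycemia replicate 2 and 0.61 to 0.62 without the others, and the covariate left 0.09.

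Hsd3b7, the 3-beta-hydroxysteroid dehydrogenase that oxidizes the ring after 7-alpha hydroxylation, ran the other way. It read 9.56 and 9.86 pre-hyperglycemia, 9.06 and 9.18 post-hyperglycemia, and 9.34 and 9.55 in BBDR.+/+. The post-hyperglycemia arrays lay below all 4 others, and both pre-hyperglycemia arrays lay above the BBDR.+/+ arrays, the lower of them only just. The post- minus pre-hyperglycemia difference was -0.59 (SE 0.13, interval -0.87 to -0.31, limma adjusted p = 0.0428). Against BBDR.+/+ the differences were -0.33 post-hyperglycemia (limma adjusted p = 0.187) and 0.26 pre-hyperglycemia (limma adjusted p = 0.482). This call held with pre-hyperglycemia replicate 1 left out and was lost without any of the other arrays (-0.65 to -0.44), after centring on ribosomal protein probe sets (-0.55, adjusted p = 0.0648) and after quantile normalization (adjusted p = 0.0501), and the covariate turned it to 0.19.

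**Figure D1:**
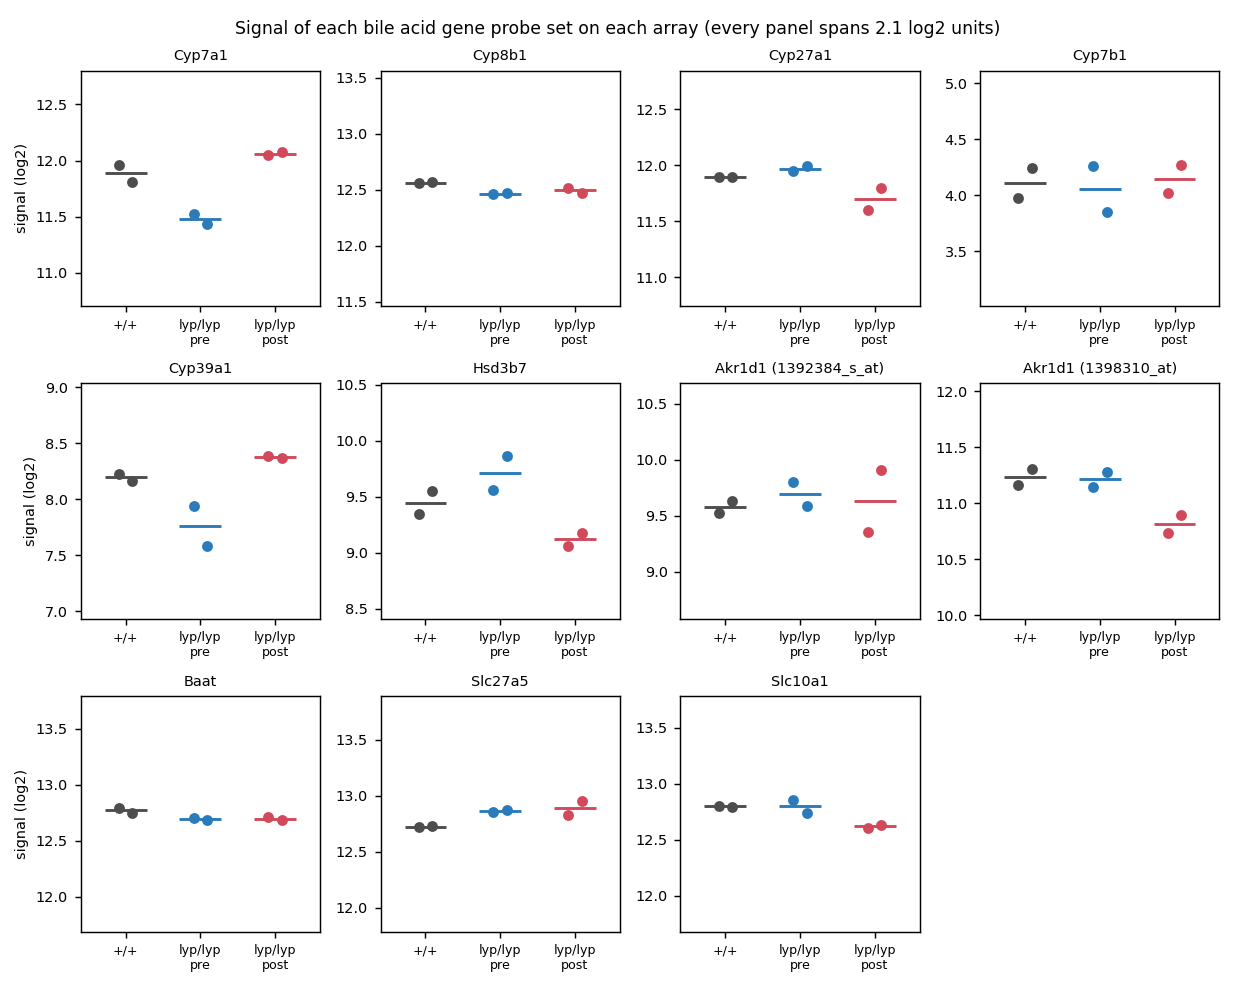
Deposited log2 signal (vertical axis, 2.1 log2 units in every panel) of the 11 member probe sets on each array for BBDR.+/+ (+/+) and for BBDR.lyp/lyp before (lyp/lyp pre) and after (lyp/lyp post) the onset of hyperglycemia, each point being an array and each bar a group mean (n = 2). Cyp7a1 and Cyp39a1 were lowest pre-hyperglycemia, at means of 11.48 and 7.76, and Hsd3b7 was lowest post-hyperglycemia, at 9.12.

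The other ring and side chain enzymes did not pass in any comparison. Akr1d1, the 5-beta-reductase, had probe sets that disagreed. The brighter read 11.16 and 11.30 in BBDR.+/+, 11.15 and 11.28 pre-hyperglycemia, and 10.73 and 10.89 post-hyperglycemia. Both post-hyperglycemia arrays lay below the other 4, by -0.42 against BBDR.+/+ (SE 0.11, limma adjusted p = 0.0580) and -0.40 against pre-hyperglycemia (limma adjusted p = 0.104). It passed against BBDR.+/+ after quantile normalization, among the brightest 60% of probe sets, with an intensity trend and with a replicate block. The dimmer gave 0.05 and -0.07 in the same comparisons, and its post-hyperglycemia arrays, 9.35 and 9.91, were the lowest and highest of all 6. Cyp27a1, the mitochondrial sterol 27-hydroxylase, read 11.60 and 11.80 post-hyperglycemia, 11.95 and 11.99 pre-hyperglycemia and 11.90 on both BBDR.+/+ arrays. Its post- minus pre-hyperglycemia difference of -0.27 (interval -0.51 to -0.03, limma adjusted p = 0.265) was the nearest of the remaining genes to the threshold after Akr1d1. Cyp8b1, the sterol 12-alpha-hydroxylase, varied least among the cytochromes P450: its arrays lay between 12.46 and 12.57, and its post- minus pre-hyperglycemia difference was 0.03 (interval -0.19 to 0.25). Cyp7b1, the oxysterol 7-alpha-hydroxylase, lay at the 18.2nd percentile of probe sets, between 3.86 and 4.27, with overlapping groups, so its differences of -0.05 to 0.09 say little about that gene.

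No conjugation or uptake gene passed the test in any comparison. Baat, the amino acid N-acyltransferase, lay between 12.69 and 12.79 on all arrays, and its post- minus pre-hyperglycemia difference was 0.00 (interval -0.22 to 0.22). Slc27a5, the bile acid coenzyme A ligase, read 12.72 and 12.73 in BBDR.+/+ and 12.83 to 12.95 on the 4 BBDR.lyp/lyp arrays. The BBDR.lyp/lyp groups did not overlap with BBDR.+/+ but the differences of 0.17 post-hyperglycemia and 0.14 pre-hyperglycemia did not pass (limma adjusted p = 0.419 and 0.680). Slc10a1, the sodium-taurocholate cotransporter NTCP, read 12.60 and 12.64 post-hyperglycemia against 12.74 to 12.86 on the other 4 arrays. Its differences were -0.18 against both BBDR.+/+ and pre-hyperglycemia (limma adjusted p = 0.377 and 0.465).

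**Figure D2:**
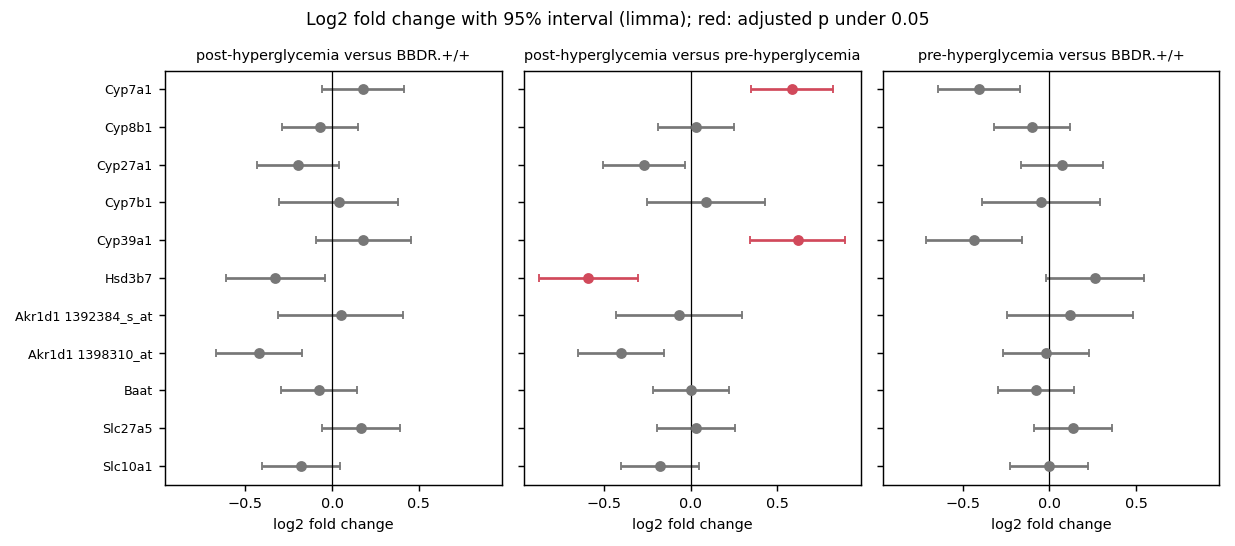
Log2 fold change (horizontal axis) of each member probe set with its 95% interval from limma, in the 3 comparisons between groups of 2 arrays. Red marks an adjusted p under 0.05, reached by Cyp7a1 (0.58), Cyp39a1 (0.62) and Hsd3b7 (-0.59) between the BBDR.lyp/lyp groups and by no member in the comparisons with BBDR.+/+.

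Counted together, 3 of the 11 member probe sets passed between pre- and post-hyperglycemia, 2 higher and 1 lower, where 2.18% of all probe sets passed (0.718% higher and 1.46% lower). Unadjusted p-values under 0.05 were reached by 5 members, against 14.9% of all probe sets. In post-hyperglycemia against BBDR.+/+, limma called 0 members against 5.15% of all probe sets (1.89% higher and 3.26% lower), and 2 members were under an unadjusted p of 0.05 against 19.7%. In pre-hyperglycemia against BBDR.+/+, limma called 0 members against 0.718% (0.464% higher and 0.254% lower), and 2 were under an unadjusted p of 0.05 against 11.4%. The groups did not overlap for 9 members post-hyperglycemia against BBDR.+/+, where 48.8% of all probe sets did not overlap, for 6 between the BBDR.lyp/lyp groups against 44.5%, and for 7 pre-hyperglycemia against BBDR.+/+ against 42.6%. The member medians were -0.07, 0.00 and -0.02 in these comparisons in turn, against 0.01, 0.01 and 0.00 over all probe sets. The methods' t-test with Benjamini-Hochberg adjustment called 0 members in all 3, with 2, 1 and 3 at an unadjusted p under 0.05.

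**Figure D3:**
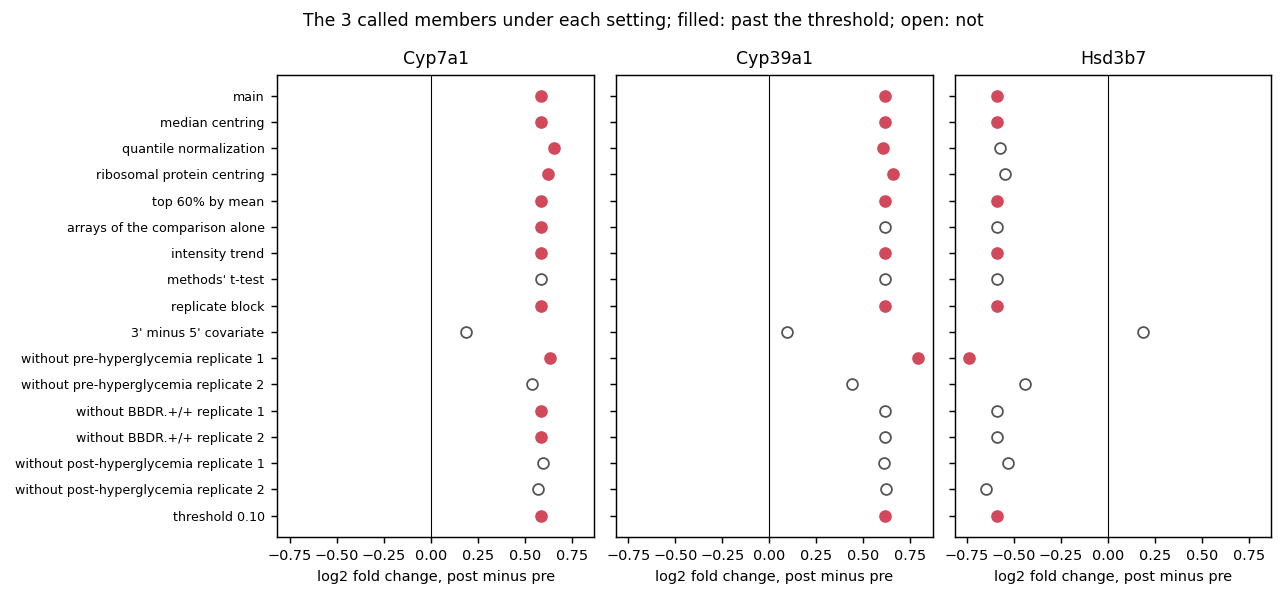
Post- minus pre-hyperglycemia log2 fold change (horizontal axis) of Cyp7a1, Cyp39a1 and Hsd3b7 under each processing setting, filled where the adjusted p passed the threshold and open where it did not. The direction held for all 3 genes under every setting plotted but the 3′ minus 5′ covariate, where Hsd3b7 stood at 0.19.

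Of the regulators of bile acid synthesis, 21 of 24 listed genes were measured, by the brightest probe set of each. Between the BBDR.lyp/lyp groups 2 rose and 2 fell, where 1.37% of the brightest probe sets of all genes were called, 0.703% higher and 0.668% lower. Nr0b2, the corepressor known as SHP that restrains Cyp7a1, fell by 0.60 (limma adjusted p = 0.0282): it read 9.46 and 9.62 pre-hyperglycemia, 8.83 and 9.05 post-hyperglycemia, and 8.78 and 8.89 in BBDR.+/+. Its pre-hyperglycemia arrays were thus the highest where those of Cyp7a1 and Cyp39a1 were the lowest, and its pre-hyperglycemia mean was higher than BBDR.+/+ by 0.71 (limma adjusted p = 0.0267). Nr1d1, the clock repressor REV-ERB alpha, rose by 1.11 between the BBDR.lyp/lyp groups (limma adjusted p = 0.00328), from 6.85 and 7.01 to 7.86 and 8.22. Pre-hyperglycemia it was below the BBDR.+/+ values of 8.47 and 8.48, by -1.55 (limma adjusted p = 0.00105). Nr1d1 kept both calls whichever array was left out, whereas the Nr0b2 calls were each lost in 4 of 6 such fits (-0.60 to -0.49 between the BBDR.lyp/lyp groups, 0.63 to 0.79 against BBDR.+/+). Nr1d1 follows the time of day, which the labels do not give for these livers. Prox1, a corepressor of Hnf4a and Nr5a2, rose by 0.53 (limma adjusted p = 0.0252) but was lost whichever array was left out (0.48 to 0.59). Bhlhe40, a clock repressor, fell by 0.76 between the BBDR.lyp/lyp groups (limma adjusted p = 0.0181) and was -0.75 against BBDR.+/+ post-hyperglycemia (limma adjusted p = 0.0106), and the first call was lost with pre-hyperglycemia replicate 2 (-0.64) or with post-hyperglycemia replicate 1 (-0.61) left out, the second without BBDR.+/+ replicate 2 (-0.66) or post-hyperglycemia replicate 1 (-0.60). Insig2, which anchors the sterol sensor in the endoplasmic reticulum, was the other of the 2 regulators lower post-hyperglycemia than in BBDR.+/+, where 3.52% of the brightest probe sets were called (2.29% higher and 1.24% lower), at -0.39 (limma adjusted p = 0.0467), lost whichever array was left out (-0.42 to -0.37). Probe sets of Hnf4a, the receptor that drives Cyp7a1 and Cyp8b1, disagreed: the brightest stood at 0.23 between the BBDR.lyp/lyp groups (limma adjusted p = 0.333), and the dimmer ones were called at -1.08 and -0.59, the first whichever array was left out and the second lost in 3 of 6 such fits (-0.61 to -0.49). For Nr5a2, an activator of the same genes, the brightest stood at -0.15 post-hyperglycemia against BBDR.+/+ and the dimmer ones were called at -0.89, whichever array was left out, and at -0.73, lost in 3 of 6 such fits (-0.77 to -0.56). The list medians were -0.04 post-hyperglycemia against BBDR.+/+, -0.06 between the BBDR.lyp/lyp groups and 0.02 pre-hyperglycemia against BBDR.+/+, where Nr0b2 and Nr1d1 were the 2 genes called.

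**Figure D4:**
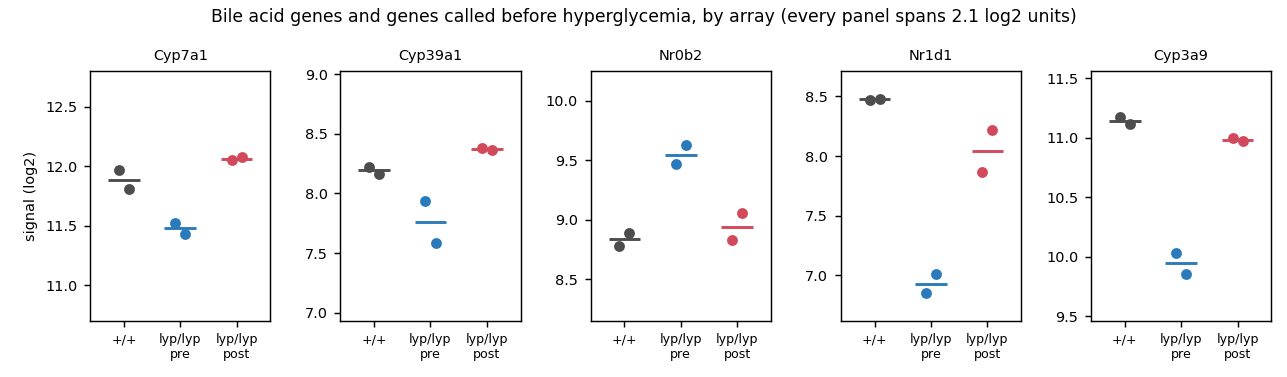
Deposited log2 signal (vertical axis, 2.1 log2 units in every panel) on each array for Cyp7a1, Cyp39a1, Nr0b2, Nr1d1 and Cyp3a9 in the 3 groups, with a point per array and a bar at each group mean (n = 2). The pre-hyperglycemia arrays lay below the other 4 for Cyp7a1, Cyp39a1, Nr1d1 and Cyp3a9 and above them for Nr0b2.

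Of the genes of the alternative pathway and side chain, 17 of 19 were measured. Post-hyperglycemia against BBDR.+/+, 1 was higher and 2 were lower, where 2.29% of the brightest probe sets of all genes were called higher and 1.24% lower. Abcd3, the peroxisomal transporter of bile acid intermediates, was 9.81 and 10.002 post-hyperglycemia against 8.89 and 9.02 in BBDR.+/+, a difference of 0.95 (limma adjusted p = 0.00125), and lay between them pre-hyperglycemia at 9.45 and 9.46. Acot12 was on the list but is a cytosolic acetyl-coenzyme A thioesterase, not a side chain enzyme. It was at -0.78 (limma adjusted p = 0.00195), where the study prints a positive fold change. Akr1c14, the 3-alpha-hydroxysteroid dehydrogenase that acts after Akr1d1, was at -0.97 (limma adjusted p = 0.00261), a call lost without BBDR.+/+ replicate 2 (-0.93). Between the BBDR.lyp/lyp groups, where 1.37% of the brightest probe sets were called, Acot12 was the only one called, at -0.68 (limma adjusted p = 0.0080), and was lost without pre-hyperglycemia replicate 2 (-0.71). Pre-hyperglycemia against BBDR.+/+, limma called 0 of the 17 and 3 were under an unadjusted p of 0.05. Abcd3 (0.50) and Akr1c14 (-0.39) had the smallest p-values there. The list medians were -0.06 post-hyperglycemia against BBDR.+/+, -0.11 between the BBDR.lyp/lyp groups and 0.03 pre-hyperglycemia against BBDR.+/+.

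Of the genes of bile acid and biliary lipid transport, 16 of 17 were measured, and every one called was lower post-hyperglycemia. Of the brightest probe sets of all genes, 0.703% were called higher and 0.668% lower between the BBDR.lyp/lyp groups. Post-hyperglycemia against BBDR.+/+ the shares were 2.29% higher and 1.24% lower. Over all probe sets, lower calls outnumbered higher ones in both comparisons, 454 to 223 and 1012 to 587. Between the BBDR.lyp/lyp groups 3 of the 16 were called: Abcb4, the phospholipid floppase of the bile canaliculus, at -0.67 (limma adjusted p = 0.0118), Abcg8, a subunit of the biliary cholesterol exporter, at -0.71 (limma adjusted p = 0.0203), and the epoxide hydrolase Ephx1 at -0.52 (limma adjusted p = 0.0404). Abcb4 read 9.78 and 9.93 pre-hyperglycemia, 9.24 and 9.14 post-hyperglycemia, and 9.59 and 9.51 in BBDR.+/+. Abcg8 read 7.92 and 8.16 pre-hyperglycemia, 7.23 and 7.43 post-hyperglycemia, and 7.72 and 7.94 in BBDR.+/+, so that the post-hyperglycemia arrays of both genes lay below the other 4. With the 3′ minus 5′ covariate the Abcg8 difference between the BBDR.lyp/lyp groups changed sign. Without pre-hyperglycemia replicate 2 all 3 calls were lost (Abcb4 -0.60, Abcg8 -0.59), as were Abcb4 without post-hyperglycemia replicate 2 (-0.62) and Abcg8 without post-hyperglycemia replicate 1 (-0.61), and Ephx1 held only without pre-hyperglycemia replicate 1. Against BBDR.+/+ post-hyperglycemia the 2 called were the oxysterol-binding protein Osbpl1a at -0.74 (limma adjusted p = 0.00405, lost without BBDR.+/+ replicate 2 at -0.72) and Ephx1 at -0.45 (limma adjusted p = 0.0438, lost without any array of either group, -0.48 to -0.41). A dimmer Osbpl1a probe set was called there at -1.07 (limma adjusted p = 0.000587) and between the BBDR.lyp/lyp groups at -0.74 (limma adjusted p = 0.00684). Both of its calls held whichever array was left out, and the other dimmer Osbpl1a probe sets were not called. Abcb11, the bile salt export pump, did not pass, at -0.17 against BBDR.+/+ and -0.19 between the BBDR.lyp/lyp groups. Dimmer probe sets of the organic anion transporters Slco1a4 (-0.94), Slco2b1 (-0.98) and Slco1b2 (-0.78) were called lower post-hyperglycemia than in BBDR.+/+ while the brightest of each gene did not pass. The Slco1a4 call held whichever array was left out, that of Slco2b1 was lost without BBDR.+/+ replicate 2 (-0.76) or with post-hyperglycemia replicate 1 left out (-0.87), and that of Slco1b2 without BBDR.+/+ replicate 2 (-0.71). Abcb4, Abcg8, Osbpl1a and Slco1a4 stand in the same gene lists, which print no direction for them, so they are not independent evidence. Pre-hyperglycemia against BBDR.+/+, limma called 0 of the 16 and 3 were under an unadjusted p of 0.05, Abcc3 (0.44) and Osbpl1a (-0.32) having the smallest p-values. The list medians were -0.13, -0.26 and 0.05 post-hyperglycemia against BBDR.+/+, between the BBDR.lyp/lyp groups and pre-hyperglycemia against BBDR.+/+.

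Of the genes of bile acid sulfation, glucuronidation and hydroxylation, 9 of 12 were measured. Cyp3a9, a cytochrome P450 that hydroxylates steroids, was lowest pre-hyperglycemia, as Cyp7a1 was, but its BBDR.+/+ arrays rather than its post-hyperglycemia arrays were the highest. It read 10.03 and 9.86 pre-hyperglycemia, 10.995 and 10.97 post-hyperglycemia, and 11.17 and 11.11 in BBDR.+/+, which gave 1.04 between the BBDR.lyp/lyp groups (limma adjusted p = 0.00182) and -1.20 pre-hyperglycemia against BBDR.+/+ (limma adjusted p = 0.00105), and both calls held whichever array was left out. Cyp3a18 fell by 0.59 between the BBDR.lyp/lyp groups (limma adjusted p = 0.0285) and was lost in 5 of 6 fits with an array left out (-0.62 to -0.45). Cyp3a2 was higher pre-hyperglycemia than in BBDR.+/+ by 0.71 (limma adjusted p = 0.0487) and was lost without any array of either group (0.56 to 0.86). The genes of the Cyp3a family are close in sequence, and their probe sets may share signal. Pre-hyperglycemia against BBDR.+/+, 0.802% of the brightest probe sets of all genes were called (0.584% higher and 0.218% lower). Post-hyperglycemia against BBDR.+/+, limma called 0 of the 9 by their brightest probe sets and 1 was under an unadjusted p of 0.05. Cyp3a2 (0.52) and Sult2a2 (-0.20) had the smallest p-values of these probe sets in that comparison. The dimmer probe set of Papss2 was called there at -0.72 (limma adjusted p = 0.00490), a call lost without BBDR.+/+ replicate 2 (-0.62). The list medians were -0.14 post-hyperglycemia against BBDR.+/+, -0.04 between the BBDR.lyp/lyp groups and -0.03 pre-hyperglycemia against BBDR.+/+.

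**Figure D5:**
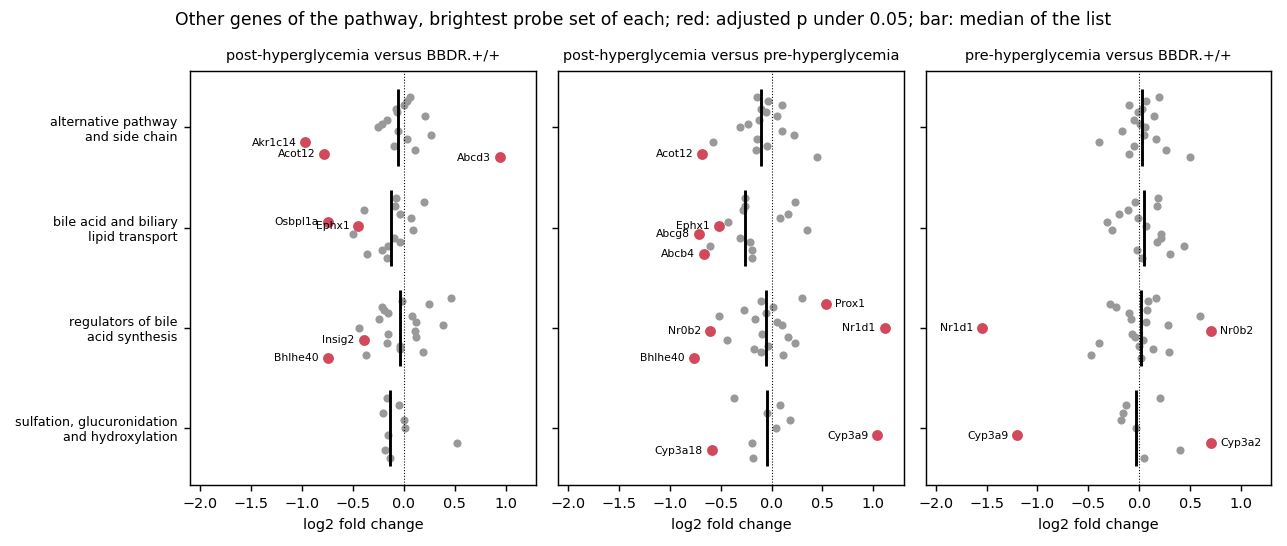
Log2 fold change (horizontal axis) of the brightest probe set of each gene in 4 further gene lists drawn up around bile acids, in the 3 comparisons between groups of 2 arrays. Bars are list medians and red points are genes with an adjusted p under 0.05. The called transport genes were all lower post-hyperglycemia, between -0.74 and -0.45, and Nr1d1 and Cyp3a9 were lower pre-hyperglycemia than in BBDR.+/+ and higher post- than pre-hyperglycemia.

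The genes most like each called member were sought among 12277 probe sets with a single symbol in the brighter part of the array, by Pearson's r over the 6 arrays. These are descriptions, since 6 arrays in 3 groups share group means, 3′ minus 5′ differences and normalization. For Cyp7a1 they were Pfkfb1 (r = 0.997), Ndufaf4 (0.987), Chordc1 (0.984), Hspa5 (0.976) and Hycc2 (0.974), and 59 probe sets reached 0.95. For Cyp39a1 they were Ltv1 (r = 0.997), Cemip (0.988), Stx18 (0.983), Ranbp2 (0.982) and Trim39 (0.981), and 44 reached 0.95. For Hsd3b7 they were Foxa3 (r = 0.998), Suox (0.996), Hbb (0.996), Kcnj8 (0.994) and Supt4h1 (0.994), and 100 reached 0.95. Hbb is a globin of red cells, whose 4 markers measured of 6 listed summed to 12.54 to 12.62 in BBDR.+/+, 12.69 to 12.84 pre-hyperglycemia and 12.34 to 12.42 post-hyperglycemia. Most of that sum is Hbb, itself picked for its likeness to Hsd3b7, so the sum is no separate evidence. The brighter Slc4a1 probe set had the group order of Hsd3b7, with means of 6.37 in BBDR.+/+, 6.86 pre-hyperglycemia and 6.31 post-hyperglycemia. The dimmer Slc4a1 probe set (6.50, 6.46 and 6.23 in the same groups) did not, being highest in BBDR.+/+. Alas2 (7.88, 8.44 and 8.11) and Ahsp (5.95, 6.27 and 6.04) did not have that order either, being lowest in BBDR.+/+. The part of red cells in the Hsd3b7 result was not tested.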

How the data were processed

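Total liver RNA was extracted with Trizol, labelled with biotin and hybridized to Affymetrix RG230 2.0 arrays. The labels name a 3′ IVT kit for amplification and the methods a two-cycle kit. The values are log2 signals deposited by the authors, who quantified the images in Affymetrix Expression Console and normalized them in Partek Genomic Suite. Neither software versions nor the summarization algorithm were named in the labels or methods. Of 31099 probe sets, 57 controls were left out of the tests, and of the other 31042 the platform's dated annotation gave 20826 a single gene symbol, 436 several and 9780 none. All 10 member genes matched RefSeq (GRCr8) through their Entrez identifiers. Percentiles and the choice of the brightest probe set rank raw signals, which depend on the probes, so they do not order genes by transcript level.

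The 6 arrays were fitted together in limma 3.58.1 (R 4.3.3) with 1 mean per group, 3 residual and 7.70 prior degrees of freedom, and Benjamini-Hochberg adjustment over all 31042 probe sets, called at an adjusted p under 0.05. This stands in for the methods' t-test and rank product, the first being run as an alternative and the second not run. The script was tested on simulated data. The brightest probe set stood for a gene in the lists. Named genes were every member probe set, the called genes of each list, up to 4 per comparison by smallest p, or the 2 with the smallest p where none passed, and the 5 genes most like each called member. Genes named outside that rule were chosen after their values were seen. The members, lists and tests were chosen with earlier results of these data known. Alternatives covered centring, quantile normalization, a filter, the samples fitted, an intensity trend, the t-test, a replicate block, a 3′ minus 5′ covariate, the threshold and leaving out each array. Replicates of a group correlated at 0.996 to 0.997 and differed by up to 1.19 to 1.44, so none was a copy of the other's values. Technical repeats of the same RNA can differ too, so this does not settle whether the replicates are separate animals.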

Additional observations from a re-analysis of the deposited data

How the results depend on the processing

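The 3 calls between the BBDR.lyp/lyp groups became 1 when only the arrays of that comparison were fitted, and 0 under the methods' t-test and with the 3′ minus 5′ covariate, and lay between 0 and 3 with 1 array left out. The 0 calls of post-hyperglycemia against BBDR.+/+ became 1 after quantile normalization, among the top 60% of probe sets by mean, with an intensity trend, with the replicate block and at a threshold of 0.10, and stayed at 0 whichever array was left out. The 0 calls of pre-hyperglycemia against BBDR.+/+ became 1 with an intensity trend (Cyp7a1, limma adjusted p = 0.0134) and stayed at 0 otherwise, each array left out included. Only 2 arrays stand behind each mean, and with 1 array left out the lone one is assumed to vary like the others.

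With the covariate the sign turned post-hyperglycemia against BBDR.+/+ for Cyp7a1 (-0.28), Cyp39a1 (-0.42), Hsd3b7 (0.56), the brighter Akr1d1 probe set (0.14) and Bhlhe40 (0.11), between the BBDR.lyp/lyp groups for Hsd3b7 (0.185), the dimmer (0.126) and brighter (0.0827) Akr1d1 probe sets, Baat (-0.0955) and Abcg8 (0.0645), and pre-hyperglycemia against BBDR.+/+ for the brighter Akr1d1 probe set (0.0527). Pre-hyperglycemia against BBDR.+/+, median centring turned the brighter Akr1d1 probe set (0.0024) and Slc10a1 (0.0202), and quantile normalization Slc10a1 (0.0105). With each array left out in turn, differences near 0 took both signs. Post-hyperglycemia against BBDR.+/+ these were Cyp7b1 (-0.0992 to 0.1754) and the dimmer Akr1d1 probe set (-0.2255 to 0.3279). Between the BBDR.lyp/lyp groups they were Cyp7b1 (-0.1166 to 0.2928), the dimmer Akr1d1 probe set (-0.3445 to 0.2089), Baat (-0.0084 to 0.0153) and Slc27a5 (-0.0334 to 0.0906). Pre-hyperglycemia against BBDR.+/+ they were Cyp7b1 (-0.2546 to 0.1547), the brighter Akr1d1 probe set (-0.0904 to 0.0531) and Slc10a1 (-0.0589 to 0.0572). The covariate nearly marks the post-hyperglycemia group, so the signs it turned cannot be read as a correction. The cause of these changes was not tested. Of the values of single members and named pathway genes, 724 kept their direction and side of the threshold, 130 no longer passed, 8 newly passed and 31 turned.

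Over all probe sets, ribosomal protein centring changed the split from 223 higher and 454 lower to 295 and 346 between the BBDR.lyp/lyp groups, and from 144 and 79 to 88 and 89 pre-hyperglycemia against BBDR.+/+. Deviations of same-numbered arrays from their group means correlated at 0.26, 0.14 and 0.11, and the methods describe serial liver samples from some rats, but no label ties a number to a rat, litter or day, so whether the numbers pair the arrays was not settled and the fit without the block was kept. The replicate block gave 1, 4 and 0 member calls post-hyperglycemia against BBDR.+/+, between the BBDR.lyp/lyp groups and pre-hyperglycemia against BBDR.+/+, and moved the calls over all probe sets from 1599 to 2273, from 677 to 1191 and from 223 to 408.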
